A study of Mus musculus with 8 samples.

Results

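The antimicrobial and calprotectin genes of the mouse cornea described here were 10 of the 54532 genes in the table. They were chosen by name, with earlier results of these data known. They are S100a8, S100a9, Lcn2, Ltf, Lyz1, Lyz2, Camp, Defb1, Slpi and Reg3g, and all 10 were matched to 1 row each through their Ensembl identifiers. Naive corneas, which had received no treatment, came from male mice of the inbred strains BALB/cN (4 corneas) and C57BL/6N (4 corneas), whose limbal lymphatic vessels differ. Ages of the sequenced mice were not given in the sources used here. The labels do not state that the corneas came from separate animals, so p-values measure the spread between these corneas. Total RNA was sequenced, and the study deposited regularized log (rlog) values, which are on a log2 scale, are normalized for library size and are shrunk towards the gene's mean where reads are few. An rlog difference, given throughout as BALB/cN minus C57BL/6N, is therefore smaller than the log2 ratio of reads, above all for genes with few reads. Read numbers were worked out from the rlog values (recovered reads) and are used to show how much signal stood behind each value. They summed to between 36.7 and 41.2 M reads in BALB/cN and to between 29.7 and 37.0 M reads in C57BL/6N corneas.

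These genes belong to the chemical defence of mucosal and ocular surfaces. S100a8 and S100a9 encode the subunits of calprotectin, which withholds zinc and manganese from microbes and is a major cytosolic protein of neutrophils. Lcn2 binds bacterial siderophores, Ltf binds iron, and lysozymes cleave bacterial cell walls. Camp and Defb1 encode membrane-active peptides, Slpi inhibits neutrophil serine proteases, and Reg3g binds the peptidoglycan of Gram-positive bacteria. In tear-bathed tissue such proteins come from the lacrimal gland, from surface epithelium and from leukocytes.

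A gene was called at an adjusted p of 0.01 or less (limma, Benjamini-Hochberg over the 25402 genes whose rlog values averaged 0 or more). Of the 10 genes, 8 passed the filter on the mean, and 2 of those 8, S100a9 and Defb1, were called, both lower in BALB/cN. Over all genes tested, 5.74% were called in either direction, 2.91% lower and 2.83% higher in BALB/cN. The same 2 members were the ones whose strains did not overlap, a pattern shown by 18.3% of all genes tested. The median rlog difference of the 8 tested members was 0.02, against 0.01 over all genes tested. A test on the recovered reads (limma voom, chosen after seeing the data) called the same number of members, 2, against 5.61% of all genes.

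The sequences that define the 2 called genes and the lysozyme pair are shown from GENCODE M21 transcripts on GRCm38, the C57BL/6J reference, 5′ to 3′ in transcript orientation. Defb1 (ENSMUSG00000044748, chr8:21776599-21795185, plus strand) has a coding sequence of 210 bases for 69 residues. Its cysteine codons, 7 in all, are in capitals, since disulfide bridges between cysteines give defensins their fold. The capitals mark every cysteine codon of the coding sequence, and which of these cysteines form bridges was not examined.
Defb1: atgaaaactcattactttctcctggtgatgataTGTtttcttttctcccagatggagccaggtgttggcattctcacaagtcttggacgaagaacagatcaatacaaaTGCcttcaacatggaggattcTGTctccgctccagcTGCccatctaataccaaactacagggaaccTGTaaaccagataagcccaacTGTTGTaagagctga

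S100a9 (ENSMUSG00000056071, chr3:90692632-90695721, minus strand) encodes 113 residues and S100a8 (ENSMUSG00000056054, chr3:90668978-90670035, plus strand) 89 residues. The last 120 bases of both coding sequences are shown with histidine codons in capitals, since histidines hold the metal ions in calprotectin. This stretch holds 5 of the 7 histidine codons of S100a9 and 2 of the 5 of S100a8. No window of 100 bases, the read length, in the longest transcript of either gene was found in a transcript of another gene.
S100a9: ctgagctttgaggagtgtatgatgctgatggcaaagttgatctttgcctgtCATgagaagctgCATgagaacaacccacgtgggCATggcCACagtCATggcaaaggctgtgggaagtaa
S100a8: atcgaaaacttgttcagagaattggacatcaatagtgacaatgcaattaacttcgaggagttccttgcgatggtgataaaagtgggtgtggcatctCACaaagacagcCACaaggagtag

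Lyz1 (ENSMUSG00000069515, chr10:117287797-117292868, minus strand) and Lyz2 (ENSMUSG00000069516, chr10:117277331-117282321, minus strand) are neighbours with coding sequences of 447 bases that differ at 22 positions (95.1% identity). The first 120 coding bases hold 11 of these positions, in capitals, and show how reads can be told apart.
Lyz1: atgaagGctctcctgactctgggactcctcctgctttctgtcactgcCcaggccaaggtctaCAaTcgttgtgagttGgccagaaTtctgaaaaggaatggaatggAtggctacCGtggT
Lyz2: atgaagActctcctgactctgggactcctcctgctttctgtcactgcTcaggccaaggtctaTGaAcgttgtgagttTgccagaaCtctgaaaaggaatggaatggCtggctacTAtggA

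Of the windows of 100 bases in the Lyz1 transcript, 2.06% were also in Lyz2, and 1.97% of those in Lyz2 were also in Lyz1. No other member shared such a window with another gene.

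Of the calprotectin subunits, S100a9 differed between the strains and S100a8 did not pass the test. S100a9 had 6, 2, 2 and 21 recovered reads in BALB/cN replicates 1 to 4, and 153, 157, 114 and 108 in C57BL/6N replicates 1 to 4. The strains did not overlap, all BALB/cN values being the lower ones, and within BALB/cN replicate 4 stood above the other three. Normalized for library size, the BALB/cN mean was 7.28 ± 8.85 and the C57BL/6N mean 142.8 ± 19.8 (SD, n = 4 each), a ratio of 19.6. Without BALB/cN replicate 4 the ratio was 48.8, so its size rests on that cornea, while the direction does not. On the rlog scale the difference was -1.54 (SE 0.12, adjusted p = 3.95e-05 from limma). It lay between -1.65 and -1.49 when each cornea was left out in turn, and the exact two-sided permutation test gave p = 0.0286, the smallest that 4 corneas against 4 allow. On the recovered reads the log2 ratio from limma voom was -4.87 (SE 0.60, adjusted p = 0.00066).

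S100a8, the partner gene, had 0, 7, 5 and 8 recovered reads in BALB/cN and 1, 14, 0 and 0 in C57BL/6N corneas. The groups overlapped, and a single C57BL/6N cornea held nearly all reads of its strain. The rlog difference was 0.02 (SE 0.06, adjusted p = 0.875 from limma), and a strain difference was not detectable at this depth. In BALB/cN corneas the reads of both genes overlapped, and replicates 2 and 3 held more reads of S100a8 than of S100a9. The difference of the rlog values, S100a9 minus S100a8, differed by -1.56 between the strains (exact two-sided permutation test, p = 0.0286). Since S100a8 varied little, between 1.91 and 2.16, this value restates the difference of S100a9, and rlog values do not compare the levels of the 2 genes.

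Defb1, a beta-defensin of epithelial cells, was the most abundant of these genes in both strains. It had 640, 568, 455 and 425 recovered reads in BALB/cN and 1518, 1405, 1586 and 1838 in C57BL/6N corneas. All BALB/cN corneas were below all C57BL/6N corneas. The normalized means were 471.2 ± 63.2 (SD, n = 4) and 1725 ± 295 (SD, n = 4), a ratio of 3.66 that lay between 3.46 and 3.89 with each cornea left out. The rlog difference was -1.34 (SE 0.10, adjusted p = 3.16e-05 from limma; exact two-sided permutation test, p = 0.0286), and the log2 ratio from limma voom was -1.85 (SE 0.15, adjusted p = 5.8e-05). Of the other genes named Defb in the list of secreted antimicrobial genes, Defb2, Defb3, Defb4, Defb6, Defb7 and Defb8 were at 0 in all corneas. Defb14 had between 5 and 14 recovered reads in BALB/cN and between 0 and 14 in C57BL/6N (adjusted p = 0.418 from limma).

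**Figure D1:**
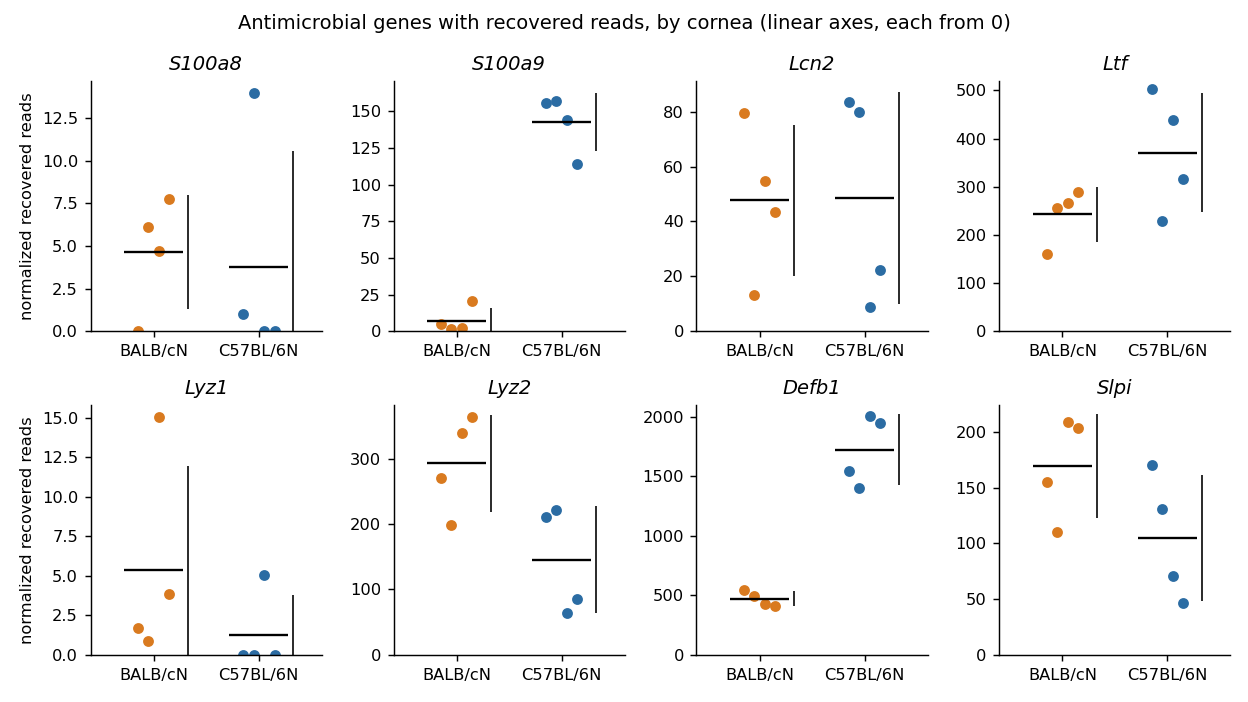
Normalized recovered reads (reads divided by the library's size factor, linear vertical axes from 0) of the 8 tested members in 4 BALB/cN and 4 C57BL/6N corneas. Each point is 1 cornea, horizontal lines are strain means, and vertical lines span 1 SD around them, cut at 0. S100a9 and Defb1 show no overlap between the strains, and the other 6 genes do.

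Camp, the cathelicidin gene, and Reg3g gave no signal that could be tested. Camp stood at -2.10 in 7 corneas, the lowest value in the table, and at -2.09 in C57BL/6N replicate 1, and reads could not be recovered at that level. Reg3g was listed at 0 in all 8 corneas.

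Iron and siderophore binding was represented by Lcn2 and Ltf. Lcn2 had 93, 15, 58 and 45 recovered reads in BALB/cN and 82, 80, 7 and 21 in C57BL/6N corneas. Both strains thus held high and low corneas, and the strain means of 47.8 ± 27.6 and 48.6 ± 38.6 normalized reads (SD, n = 4 each) lay close together. The rlog difference was 0.02 (SE 0.23, adjusted p = 0.969 from limma).

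Ltf had 186, 292, 283 and 298 recovered reads in BALB/cN and 493, 228, 347 and 298 in C57BL/6N corneas. After normalization, 1 C57BL/6N cornea lay within the BALB/cN range, and the groups overlapped. The normalized means were 242.4 ± 57.1 and 371.0 ± 123.0 (SD, n = 4 each). The rlog difference was -0.38 (SE 0.17, adjusted p = 0.224 from limma), which did not pass the threshold.

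Lysozyme signal came almost wholly from Lyz2, the gene of macrophages, and not from Lyz1, the gene of intestinal Paneth cells. Lyz2 had 315, 228, 361 and 375 recovered reads in BALB/cN and 207, 221, 51 and 81 in C57BL/6N corneas. The lowest BALB/cN cornea overlapped the C57BL/6N range after normalization, while C57BL/6N replicates 3 and 4 lay far below all others. The normalized means were 293.1 ± 74.0 and 145.5 ± 81.8 (SD, n = 4 each), and the rlog difference was 0.67 (SE 0.23, adjusted p = 0.0978 from limma). Lyz1 had 2, 1, 16 and 4 recovered reads in BALB/cN and 0, 0, 4 and 0 in C57BL/6N corneas (adjusted p = 0.462 from limma). A read within the shared windows cannot by itself be assigned to either gene, although the other read of its pair may lie outside them. Summed over both genes on the linear scale, which does not restore reads left uncounted because they matched both, the log2 value differed by 0.66 (exact two-sided permutation test, p = 0.0857).

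Slpi (chr2:164354070-164389095, minus strand, with the microRNA gene Mir7678 inside its bounds) had 181, 126, 222 and 210 recovered reads in BALB/cN and 167, 131, 56 and 44 in C57BL/6N corneas. The strains overlapped, and again C57BL/6N replicates 3 and 4 were the lowest. The normalized means were 169.4 ± 46.3 and 104.6 ± 56.3 (SD, n = 4 each), with an rlog difference of 0.42 (SE 0.20, adjusted p = 0.249 from limma).

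Levels were compared between genes per kilobase of annotated exons and per M recovered reads. In C57BL/6N corneas Defb1 stood at 52.9 ± 8.22 (SD, n = 4), followed by S100a9 at 7.34 ± 1.16. Lyz2 (2.98 ± 1.72), Ltf (2.89 ± 0.99) and Slpi (2.39 ± 1.33) came next and did not differ beyond their spread, and Lcn2 followed at 0.50 ± 0.40. In BALB/cN corneas the order was Defb1 (15.2 ± 2.33), Lyz2 (6.25 ± 1.55), Slpi (4.03 ± 1.07) and Ltf (1.97 ± 0.44). Lcn2 (0.51 ± 0.31) and S100a9 (0.39 ± 0.48) followed and overlapped. S100a9 thus stood second in C57BL/6N and sixth in BALB/cN among the 8 genes, and S100a8 and Lyz1 were the lowest in both strains, at 0.19 or less.

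The corneas differed in tissue makeup. Of 9 markers of stromal keratocytes, the summed normalized reads were between 249697 and 267827 in BALB/cN replicates 1, 3 and 4 and 371921 or more in C57BL/6N replicates 1 and 2. They were 78162 in BALB/cN replicate 2, 41844 in C57BL/6N replicate 3 and 45109 in C57BL/6N replicate 4. In bulk tissue, fewer cells of a type and less RNA per cell cannot be told apart. The lowest Lcn2 values (normalized reads of 13.1, 8.85 and 22.2) were those of these 3 corneas, and the lowest Lyz2 value of each strain was in 1 of them. Slpi was likewise lowest in BALB/cN replicate 2 (110.1) within its strain and in C57BL/6N replicates 3 (70.8) and 4 (46.6). The same corneas were lowest within their strain in the sum of 12 macrophage markers, at 2010 against 2610 to 3189 in BALB/cN and at 1676 and 1762 against 2397 and 2866 in C57BL/6N.

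Without these 3 corneas, the rlog difference was -1.58 for S100a9 (adjusted p = 0.0027) and -1.20 for Defb1 (adjusted p = 0.00142), both called by limma. Lyz2 then differed by 0.37 (adjusted p = 0.0879) and Slpi by 0.19 (adjusted p = 0.405), while the small difference of Lcn2 turned to -0.21 (adjusted p = 0.401). With the mean of the keratocyte markers as a covariate, Lyz2 differed by 0.48 and was called (adjusted p = 0.00326), alongside S100a9 and Defb1. Both settings were chosen after seeing the data. The part of tissue makeup in the values of Lcn2, Lyz2 and Slpi beyond these fits was not tested.

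**Figure D2:**
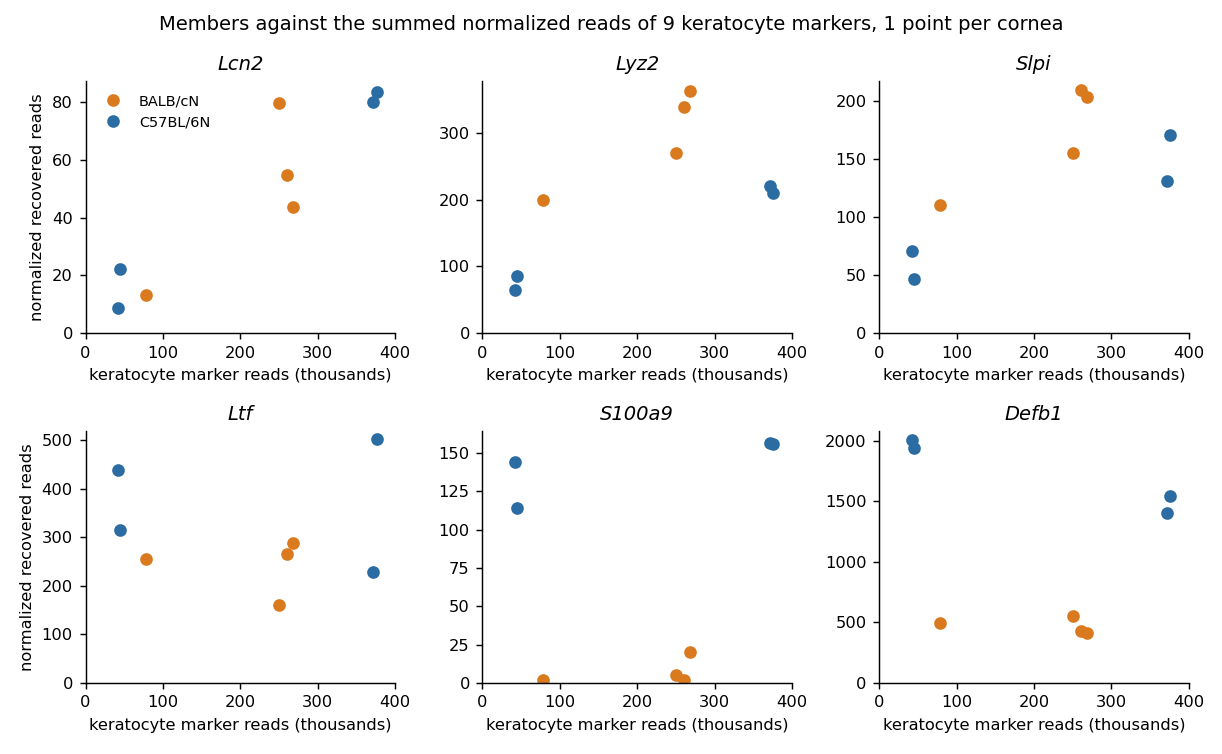
Normalized recovered reads of 6 members (vertical axes, linear from 0) against the summed normalized reads of 9 keratocyte markers (horizontal axes, in units of 1000 reads), with 1 point per cornea for 4 BALB/cN and 4 C57BL/6N corneas. Lcn2 is at 22.2 or less in the 3 corneas with few marker reads and at 43.6 or more in the other 5, while S100a9 and Defb1 separate by strain at low and high marker reads alike.

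Markers of cells that could carry these transcripts were examined beside them. Of 13 neutrophil markers, 9 were at 0 in all corneas, among them the defining genes Ly6g, Mpo, Elane, Cxcr2 and Mmp8. Of the 4 that were tested, none was called, and their summed normalized reads were 1179 to 1654 in BALB/cN and 1358 to 2093 in C57BL/6N, nearly all of them of Itgam. Mean normalized reads in BALB/cN and C57BL/6N were 13.5 and 4.46 for Csf3r and 18.1 and 3.57 for Stfa2l1. They were 19.5 and 20.1 for Cd177 and 1383 and 1654 for Itgam (adjusted p = 0.0765 or more from limma for all 4). All 12 macrophage markers were tested and none was called. Of 8 lacrimal gland markers, 6 were at 0 in all corneas, including Prol1 and Pip, and the others, Aqp5 and Bhlha15, were not called. Aqp5 had means of 108383 and 124829 normalized reads in BALB/cN and C57BL/6N. At such a level, beside 6 markers at 0, it cannot be read as an amount of lacrimal gland. Of 6 markers of Paneth cells and gut epithelium, 5 were at 0.

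Corneal epithelium markers were abundant in all corneas, with between 1898749 and 2273010 summed normalized reads for 9 genes and none called. Of 7 conjunctiva markers, 4 were called (57.1%, against 5.74% of all genes), all lower in BALB/cN as S100a9 and Defb1 were. These were the keratins Krt4, Krt13 (rlog difference -2.51) and Krt19 and the membrane mucin gene Muc4 (rlog difference -0.48). The summed normalized reads of the 7 genes were 523826 to 773099 in BALB/cN and 886612 to 1119182 in C57BL/6N, almost all from Muc4. Muc4 had means of 629966 and 970432 in BALB/cN and C57BL/6N, and the corneal epithelium marker Krt12 had 857862 and 860427. At such a level Muc4, and with it the sum, cannot be read as an amount of conjunctiva. The keratin Krt8 and Muc5ac, which marks goblet cells, lay in the other direction and were not called. Krt8 had mean normalized reads of 33.0 in BALB/cN and 6.51 in C57BL/6N (adjusted p = 0.0111 from limma) without overlap between the strains, and Muc5ac had 260.4 and 1.52 (adjusted p = 0.0225). Muc16 of the same list had mean normalized reads of 9.12 in BALB/cN and 11.5 in C57BL/6N (rlog difference -0.04, adjusted p = 0.851 from limma). The part of conjunctival cells in the strain difference of S100a9 and Defb1 was not tested.

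Other genes of the S100 family carry calcium signals in epithelium. Of 14 on the list, 12 were tested and 1, S100a7a, was called (8.33%, against 5.74% of all genes), with a median rlog difference of 0.03. S100a7a had between 1776 and 2445 recovered reads in BALB/cN and between 923 and 1204 in C57BL/6N, so that the strains did not overlap. It was higher in BALB/cN, opposite to S100a9, by 0.58 on the rlog scale (SE 0.10, adjusted p = 0.00603 from limma). This call was lost with median centring (adjusted p = 0.0303), without the 3 corneas described above as low in keratocyte markers (adjusted p = 0.0531), and with any single cornea other than BALB/cN replicate 1 left out (adjusted p = 0.0107 to 0.0229). S100b, named for the next largest difference, had 239, 0, 4 and 608 recovered reads in BALB/cN and between 4 and 131 in C57BL/6N (rlog difference 0.52, SE 0.74, adjusted p = 0.72). Its limma voom log2 ratio had the other sign, -0.43 (adjusted p = 0.928), as did its rlog difference without BALB/cN replicate 4, -0.13. BALB/cN replicates 1 and 4, in which it was high, also stood apart in the summed normalized reads of 6 pigment cell markers (19319 and 43529, against 209.9 to 3787 in the other corneas) and of 7 lens markers (10191 and 6509, against 2473 to 4282). The part of these cells in the S100b values was not tested.

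Among 43 other secreted antimicrobial genes, 17 were tested and 21 were at 0 in all corneas. Of the 17, 2 were higher and 1 was lower in BALB/cN (17.6% called, against 5.74% of all genes, median rlog difference 0.02). The lower gene was Pglyrp4, a peptidoglycan recognition protein that kills bacteria. It had 12, 13, 10 and 1 recovered reads in BALB/cN and 501, 525, 453 and 487 in C57BL/6N corneas, with normalized means of 8.01 ± 4.76 and 530.8 ± 28.5 (SD, n = 4 each), a ratio of 66.3. Its rlog difference was -3.08 (SE 0.09, adjusted p = 7.31e-08 from limma). Its relative Pglyrp1 was more abundant and was not called, with means of 8988 and 9353 normalized reads (adjusted p = 0.851). The higher genes were Wfdc2, which encodes a small protein with the same kind of domain as Slpi, and Lypd8, which encodes a protein that binds bacterial flagella. Wfdc2 had between 2061 and 2379 recovered reads in BALB/cN and between 467 and 985 in C57BL/6N (rlog difference 0.95, SE 0.10, adjusted p = 0.000262). Lypd8 had between 132 and 186 and between 23 and 63, respectively (rlog difference 0.86, SE 0.13, adjusted p = 0.00217), and its call was lost without the 3 corneas low in keratocyte markers (adjusted p = 0.043).

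Receptors and carriers for these proteins gave 12 tested genes of 16. Of these, 1 was higher and 1 lower in BALB/cN (16.7% called, against 5.74% of all genes, median rlog difference 0.07). Emb, which encodes embigin, was lower in BALB/cN. It had between 109 and 168 recovered reads in BALB/cN and between 335 and 577 in C57BL/6N, with normalized means of 128.4 and 513.5 (rlog difference -1.28, SE 0.09, adjusted p = 2.14e-05). P2rx7, an ATP-gated channel of innate immunity, was higher in BALB/cN by 0.53 (SE 0.08, adjusted p = 0.00172), a call lost with median centring (adjusted p = 0.0266) and without the same 3 corneas (adjusted p = 0.015). The classical calprotectin receptors Tlr4 and Ager were not called. Tlr4 had means of 342.5 and 531.7 normalized reads in BALB/cN and C57BL/6N (adjusted p = 0.0218), and Ager means of 53.5 and 43.0 (adjusted p = 0.609). Bsg of the same list was not called either, with means of 14073.5 and 11570.3 (rlog difference 0.25, adjusted p = 0.411 from limma).

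Of 41 regulators, 40 were matched and 33 tested, with 1 higher and 3 lower in BALB/cN (12.1% called, against 5.74% of all genes, median rlog difference -0.07). All 4 encode cytokine receptor chains, and the receptor genes Il17ra, Il17rc, Il10rb, Il6st and Tnfrsf1a of the same list were not called (adjusted p = 0.108 or more). Il22ra1, a subunit of the receptor for IL-22, was higher in BALB/cN by 1.16 (SE 0.10, adjusted p = 5.18e-05), with means of 435.8 and 118.6 normalized reads. Il6ra, the IL-6 receptor subunit, had an rlog difference of -1.88 (SE 0.09, adjusted p = 1.86e-06), with means of 167.2 and 1104. Il1r1, the IL-1 receptor, had one of -1.09 (SE 0.13, adjusted p = 0.000688), and Il1rl2, the receptor of the IL-36 cytokines, one of -0.81 (SE 0.09, adjusted p = 0.000482). In each of these 4 genes the strains did not overlap, a pattern shown by 18.3% of all genes tested. Without the same 3 corneas the call of Il1r1 was lost (adjusted p = 0.0276 from limma). The ligand genes Il17a, Il22 and Il6 were at 0 in all corneas, while others had reads in both strains and were not called. Il1a had mean normalized reads of 1031 in BALB/cN and 1271 in C57BL/6N (adjusted p = 0.291), Il36g 531.0 and 528.3 (adjusted p = 0.88), Il36a 109.7 and 40.6 (adjusted p = 0.0755), and Il36b 51.1 and 70.8 (adjusted p = 0.41). Tnf had 397.6 and 565.4 (adjusted p = 0.0137). The transcription factor genes Cebpa, Cebpb, Cebpd, Cebpe, Nfkb1, Rela and Stat3 were not called.

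**Figure D3:**
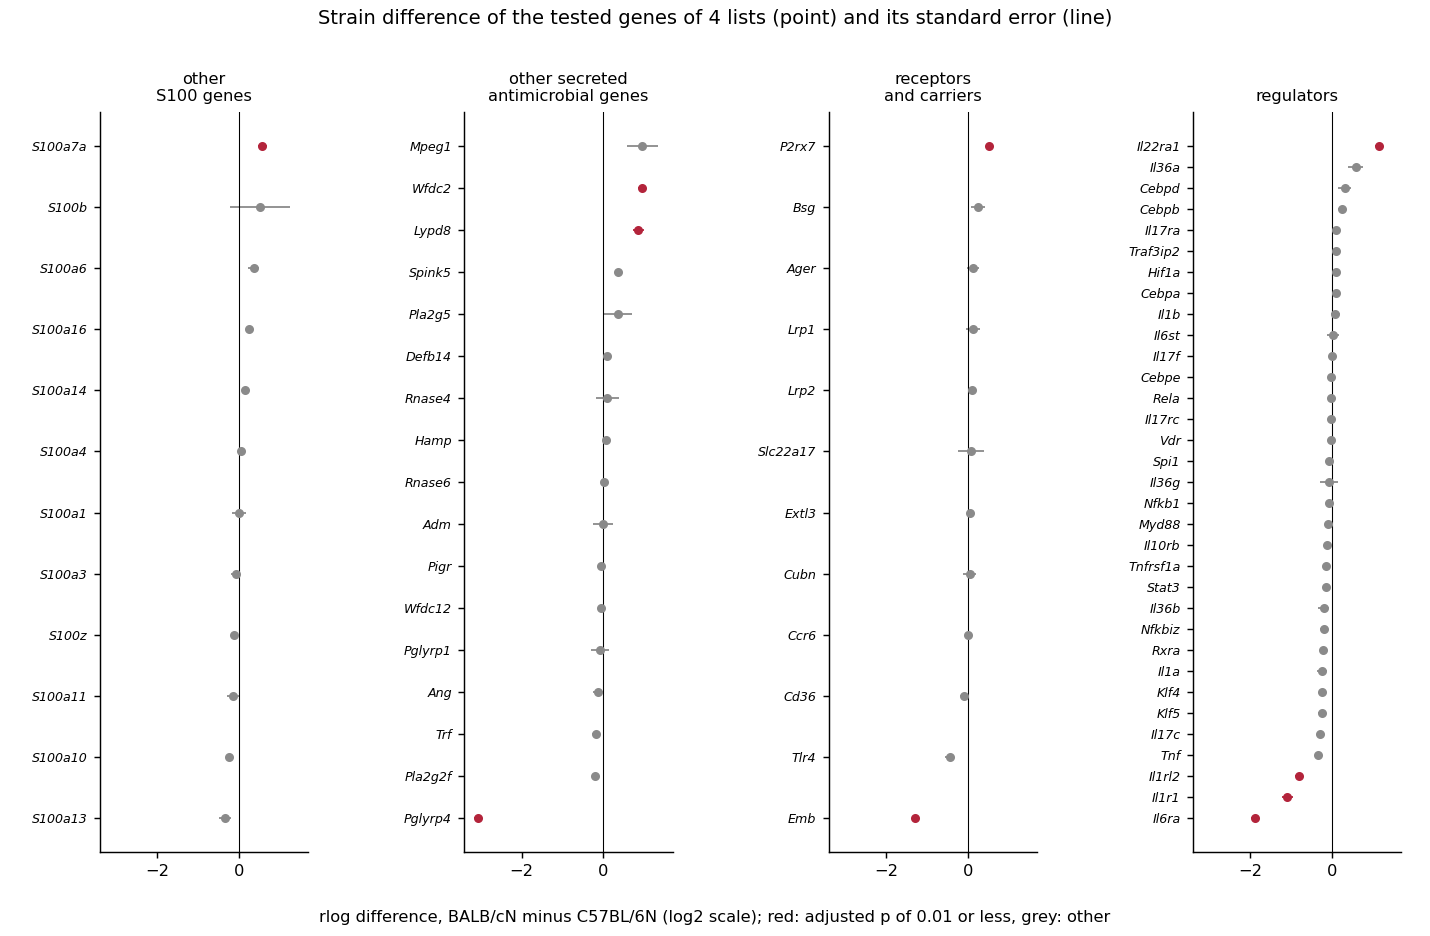
Differences in rlog value between the strains (BALB/cN minus C57BL/6N, log2 scale, horizontal axes) for the tested genes of 4 lists, with points for the limma estimate and lines for 1 standard error. Red points mark the 10 genes called at an adjusted p of 0.01 or less, from Pglyrp4 at -3.08 to Il22ra1 at 1.16, and grey points mark the others.

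S100a9 lies in a cluster of S100 genes on chromosome 3, and its neighbours were examined after the values had been seen. The nearest tested protein-coding genes on 1 side were S100a8, S100a7a and S100a6, and on the other side Pglyrp4, Lor and Sprr2d. Pglyrp4 (chr3:90726906-90741517, plus strand) starts 31.2 kb from the start of S100a9, and Lor, the next tested gene, lies 1387 kb away. Both S100a9 and its neighbour Pglyrp4 were lower in BALB/cN, S100a8 in between S100a9 and S100a7a was not called, and S100a7a was higher. Within 1000 kb on either side, 37 protein-coding genes, S100a9 included, were tested and 6 were called (16.2%, against 5.74% of all genes). S100a9 is among the 6, and the window was centred on it because it was called. The share is therefore raised by the choice of window and is not a result about the neighbours alone. The median rlog difference over the 37 was 0.03. Besides S100a9, Pglyrp4 and S100a7a these were Il6ra (-1.88), Tpm3 (-1.27) and Adar (0.91). Around Defb1 the nearest tested protein-coding genes were Defb10, Defb9 and Defb11 on 1 side and Gm21119, Gm15319 and Gm31371 on the other. None of these 6 was called, and none had more than 18 recovered reads in a cornea.

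**Figure D4:**
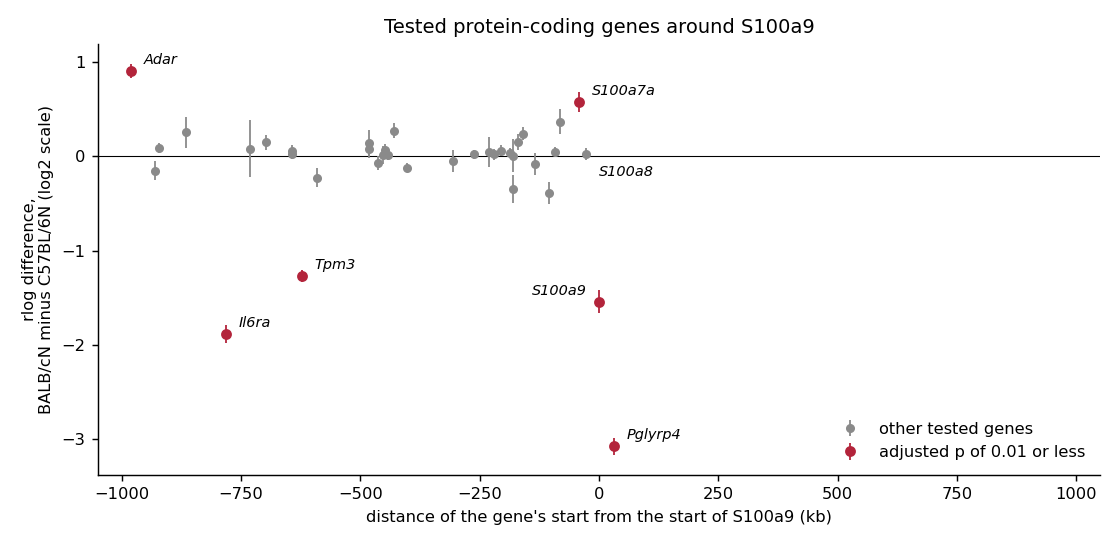
Difference in rlog value between the strains (BALB/cN minus C57BL/6N, log2 scale, vertical axis, lines for 1 standard error) of the 37 tested protein-coding genes within 1000 kb of S100a9, by the distance between the starts of the genes (kb, horizontal axis). The 6 called genes, in red and named, lie in both directions, and S100a8, in grey and named, lies near 0 beside S100a9.

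The genes nearest to the called members in pattern over the 8 corneas were taken from 11316 protein-coding genes, by the root mean square difference of rlog values centred on the gene's mean. For S100a9 these were Frrs1 (0.14), Dnm3 (0.14) and Ptprd (0.14), with rlog differences of -1.65, -1.42 and -1.51. For Defb1 they were St6galnac1 (0.09), B3gnt3 (0.09) and Adh7 (0.10), with rlog differences of -1.36, -1.36 and -1.22. All 6 were called, which follows from their likeness to a called gene.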

How the data were processed

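The authors sequenced strand-specific libraries of total RNA from 8 corneas (4 per strain) in paired reads of 100 bases. Per the labels and methods, reads were aligned with TopHat2 (2.1.1) to strain-specific pseudo-genomes of GRCm38, counted over exons with HTSeq (0.7.1), and transformed with DESeq2 (1.30). The deposited values are rlog values (log2 scale, decimal commas). All columns were assigned to corneas by the labels, and 0 columns were unused.

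Strains were compared with limma 3.58.1 (lmFit, eBayes with trend) over 25402 genes, and single values with exact permutation tests. Members and lists were chosen with earlier results of these data known. Named genes were all members, the called genes of each list (where fewer than 2 were called, the 2 with the largest difference), and the 3 genes of nearest pattern. Genes of other kinds, such as neighbours and markers, were named after their values were seen.

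Reads were recovered from the rlog values alone, by fitting the constants of the transformation so that counts became whole. Among 9739 genes left out of the fit with means under 1000, 93.3% of values were whole to within 0.1, and 19.9% were so once random fractions had been added. For means of 1000 to 5000 the share over all genes was 59%. Over 5000 it was 22%, near the 20.2% that random fractions gave among genes left out of the fit. Whole counts were thus not recovered there, and high values such as marker sums are approximate. Reads of PCR-amplified libraries are not independent molecules. Alternatives were no variance trend, a robust fit, other filters, centring and quantile normalization, an empirical null, a replicate block, leaving out corneas, and a threshold of 0.05, with limma voom and 2 settings for keratocyte markers added after seeing the data. Procedures were tested on simulated data.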

Additional observations from a re-analysis of the deposited data

Results flagged for a closer look

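In 40 groups of 4 corneas (the tested members, the derived values and the called genes of the lists in each strain), 4 held a cornea far from the other 3, where chance gives about 2. S100a8 in C57BL/6N replicate 2 stood at an rlog value of 2.16 against 1.91 to 1.93 in the other corneas of the strain, a gap of 0.918 of the range. Lyz1 in C57BL/6N replicate 3 stood at 1.66 against 1.56 in each of the others, a gap of 0.996 of the range. Both rest on few reads, 14 for S100a8 and 4 for Lyz1. Pglyrp4 in BALB/cN replicate 4 was lower than the other BALB/cN corneas, at 5.05 against 5.33 to 5.38 (0.87 of the range), where 1 read was recovered. Il6ra in BALB/cN replicate 1 was higher, at 8.12 against 7.76 to 7.81 (0.849 of the range). Neither cornea came near the other strain.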

How the results depend on the processing

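S100a9 and Defb1 were called by limma under every alternative except the empirical null, whose standard deviation was 1.75. There they kept -1.54 (adjusted p = 0.424) and -1.34 (adjusted p = 0.417), 0 members and 0 of all genes were called, and 1478 genes had an unadjusted p under 0.05. The count over all genes was 958 with median centring (413 higher and 545 lower, against 718 and 740), 554 with the replicate block, 2842 at a threshold of 0.05, 852 without the 3 corneas low in keratocyte markers, 2390 with these markers as a covariate, and between 953 and 1163 with each cornea left out, against 1458. The deviations of same-numbered corneas from their strain means had correlations of 0.31, -0.53, -0.20 and -0.45. Since tissue makeup also enters these deviations, they cannot show whether the numbers pair corneas, and the main fit used no pairs. With the replicate block, the strain difference of S100a9 minus S100a8, which restates that of S100a9, was -1.56 (exact permutation p = 0.125, the smallest that 4 pairs allow), 2 members were called, and the calls of S100a7a (adjusted p = 0.0291), Lypd8 (adjusted p = 0.0304) and P2rx7 (adjusted p = 0.0179) were lost. Without the 3 corneas it was -1.52 (exact permutation p = 0.1, the smallest possible). The lysozyme sum reached 0.59 (exact permutation p = 0.0286) with median centring. The differences of S100a8 and Lcn2 lay near 0 and changed sign. S100a8 stood at -0.053 with median centring, at -0.056 without the 3 corneas and between -0.0015 and 0.082 with each left out. Lcn2 stood at -0.051, -0.21 and between -0.14 and 0.17, and at -0.023 with quantile normalization and -0.17 with the covariate. Of the lists, other S100 genes had 2 called at 0.05 and 0 (S100a7a lost) with median centring or without the 3 corneas, receptors and carriers 1 (P2rx7 lost) under both of the latter, and regulators 7 at 0.05. The causes were not tested. Genes under about 10 reads (S100a8, Lyz1) cannot resolve a strain difference at this depth.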
